A study of Mus musculus with 6 samples.

Results

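The 9 genes described here encode the kinases and adaptors that act directly below the B cell receptor, namely Lyn, Blk, Syk, Btk, Blnk, Vav1, Plcg2, Bcl10 and Malt1. They were chosen by name, with no threshold on measured values, and all 9 were found among the 21448 genes of the table. RNA was measured by sequencing in 3 libraries labelled PRDM15 KO and 3 libraries labelled wild type. All were lymphoma B cells of E mu-Myc transgenic mice, in which an immunoglobulin heavy chain enhancer drives Myc and B cell tumours arise. The cells of both groups were kept in medium with IL7. Per the labels' protocols, Prdm15 deletion was induced by 24 hours in 50 nM 4-hydroxytamoxifen (OHT), control cells got ethanol, and collection followed 3 days later. The library titles do not say which libraries received OHT, so OHT is taken to go with the KO label and cannot be told apart from the deletion. The OHT-responsive recombinase, the Prdm15 allele, the age of the mice and whether libraries of equal number came from the same tumour were not stated in the sources at hand.

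The B cell receptor has no enzyme of its own. On antigen binding, Src family kinases such as Lyn and Blk phosphorylate tyrosines in the receptor's Cd79a and Cd79b chains, and Syk docks there and is activated. Syk phosphorylates the adaptor Blnk, which gathers Btk, Vav1 and phospholipase C-γ2 (Plcg2), so that calcium and protein kinase C are engaged. Downstream of protein kinase C, Bcl10 and Malt1 assemble into a complex that switches on NF-κB. A pre-B form of the receptor uses the same kinases, and signals from it steer early B cell development.

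Values are reads per gene scaled to effective library size (CPM, which puts libraries of different depth on a common scale), and KO and WT stand for the labelled groups. Libraries held 28852951 to 41204788 reads in KO and 38581112 to 47255421 in WT. Prdm15 itself lay between 39.2 and 40.9 CPM in KO libraries and between 29.2 and 47.3 CPM in WT libraries, so a sum over the whole gene did not check the labels, on which the directions given here rest. The B cell label was checked against 11 B cell markers, of which 9 were found and tested. Cd79b stood at 446 to 519 CPM in KO and 389 to 517 CPM in WT, while Ms4a1, which encodes CD20 of mature B cells, was at 0.498 to 2.91 CPM in KO and 1.52 to 6.04 CPM in WT. Transcripts of the pre-B receptor's surrogate light chain were present, with Igll1 at 92.2 to 499 CPM in KO and 226 to 445 CPM in WT and Vpreb1 at 30.8 to 247 CPM in KO and 55.8 to 269 CPM in WT. Pou2af1, a B cell coactivator, stood at 349 to 559 CPM in KO and 380 to 559 CPM in WT.

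Promoters of 6 of these genes could be read from RefSeq (GRCm38.p6, a later build than the mm9 named for the deposited table). The 4 printed here are the 250 bases before the annotated start. The level of Blnk and Syk differed between replicate numbers. For Vav1 and Plcg2 the means of the replicate numbers hardly differed. Syk has 2 annotated starts, of which the first is shown. Capitals mark matches, on either strand, to 4 motifs of B cell and MYC regulation, which do not overlap here.
Blnk promoter, chr19:40994222-40994471, minus strand: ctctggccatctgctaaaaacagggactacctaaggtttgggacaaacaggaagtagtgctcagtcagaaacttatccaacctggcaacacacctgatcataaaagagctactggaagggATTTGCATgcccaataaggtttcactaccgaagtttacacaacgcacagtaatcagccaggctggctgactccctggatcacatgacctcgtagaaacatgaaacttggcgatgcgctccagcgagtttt
Syk promoter, chr13:52583187-52583436, plus strand: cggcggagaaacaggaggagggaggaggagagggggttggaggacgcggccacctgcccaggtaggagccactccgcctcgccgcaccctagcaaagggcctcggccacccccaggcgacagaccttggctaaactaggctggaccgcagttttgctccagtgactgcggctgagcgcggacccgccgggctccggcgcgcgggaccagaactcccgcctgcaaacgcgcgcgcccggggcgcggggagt
Vav1 promoter, chr17:57278850-57279099, plus strand: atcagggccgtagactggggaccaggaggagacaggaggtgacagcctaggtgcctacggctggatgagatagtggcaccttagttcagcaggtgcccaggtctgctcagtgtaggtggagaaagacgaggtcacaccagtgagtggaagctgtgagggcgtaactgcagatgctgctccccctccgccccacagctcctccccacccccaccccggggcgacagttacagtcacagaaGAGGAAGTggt
Plcg2 promoter, chr8:117498025-117498274, plus strand: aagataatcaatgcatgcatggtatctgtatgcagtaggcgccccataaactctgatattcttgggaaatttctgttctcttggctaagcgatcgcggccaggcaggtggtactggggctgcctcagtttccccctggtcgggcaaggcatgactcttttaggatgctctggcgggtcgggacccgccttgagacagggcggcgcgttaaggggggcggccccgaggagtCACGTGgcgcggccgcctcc

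The motifs searched were the octamer ATGCAAAT, bound by OCT factors, the purine-rich site GAGGAAGT of the ETS factor PU.1, the palindromic site of EBF1, and the E-box CACGTG, to which MYC can bind. Counting back from the start, with -1 as the last base before it, the Blnk window held an octamer on the reverse strand at -130, the Vav1 window a PU.1-type site at -11 and the Plcg2 window an E-box at -20. The Syk window shown held none of the 4, nor did those of Btk, Bcl10 and the second Syk start. Of 32851 promoters of the same length, 1.60% held the octamer, 2.44% the PU.1-type site, 0.779% the EBF site and 6.02% the E-box. A match describes letters in a window and is not a measured binding site.

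None of the 9 genes passed the test for a difference between KO and WT libraries, in the fit of the 2 groups or in the fit that also holds the replicate number. Limma on log2(value + 1) called 0 of 9 members without the replicate number, where it called 0.00949% of the 10533 tested genes (those with a mean of at least 1), and the members' adjusted p was 0.9998 throughout. With the replicate number it called 0 of 9 members, against 0.873% of tested genes, and the members' adjusted p lay between 0.398 and 0.987. At an unadjusted p under 0.05 neither limma fit had any member (0 of 9). Of the 10533 tested genes, 428 without and 2213 with the replicate number were under it. On recovered reads, edgeR called 0 of 9 members without and with the replicate number, against 0% and 0.37% of tested genes. DESeq2 called 0 of 9 members without and with it, against 1.04% and 7.01%. KO and WT values overlapped in all 9 members, while 9.5% of tested genes had groups that did not overlap. With 9 members and the shares called at the adjusted threshold, a count of 0 has little room to stand out. The intervals given below say more about the size of change these libraries allow.

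**Figure D1:**
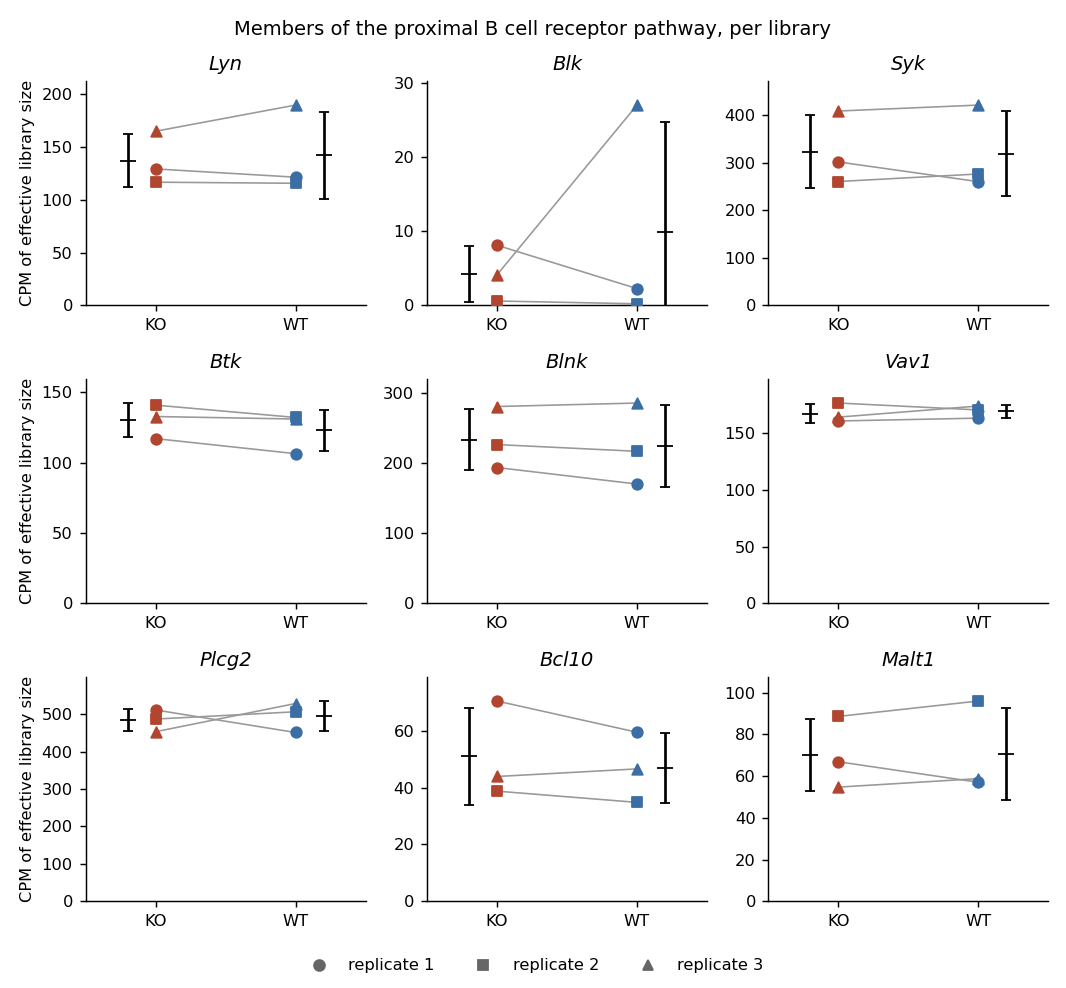
Each panel plots 1 of the 9 genes, in CPM on a vertical axis that starts at 0, for 3 KO and 3 WT libraries; grey lines link equal replicate numbers, and black bars give mean ± SD (n = 3 each, cut off at 0 for Blk). In both groups replicate 3 is the highest for Lyn, Syk and Blnk, replicate 1 for Bcl10 and replicate 2 for Malt1. The other lines of Syk and Malt1 cross. Those of Vav1 and Plcg2 lie close together on this axis but also cross, and in Plcg2 the order of the replicates is reversed between KO and WT. Blk stands at 27.0 CPM in WT replicate 3 against 8.12 CPM or less in the other 5 libraries.

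Lyn, the Src family kinase that starts the cascade and also switches on inhibitory receptors, was at 129, 117 and 165 CPM in KO replicates 1, 2 and 3, against 121, 115 and 189 CPM in WT replicates 1, 2 and 3. Replicate 3 was the highest in both groups. The log2 change, KO minus WT, was -0.033 ± 0.071 (SE of the fit with the replicate number, limma adjusted p = 0.820, n = 3 each). Its 95% interval ran from 0.862-fold to 1.11-fold.

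Blk, a Src family kinase largely restricted to the B lineage, was the most variable of the 9. It was at 8.12, 0.602 and 4.13 CPM in KO replicates 1, 2 and 3, against 2.27, 0.226 and 27.0 CPM in WT replicates 1, 2 and 3. These values rest on 244, 24 and 174 reads in KO libraries and on 85, 9 and 1262 reads in WT libraries. The highest library was 119.7-fold above the lowest, the groups overlapped, and the change went both ways, at 1.48, 0.39 and -2.45 (log2) in pairs 1, 2 and 3. The fitted log2 change of value plus 1 was -0.19 ± 0.74, with an interval from 0.237-fold to 3.21-fold on that scale (limma with the replicate number, adjusted p = 0.900). That scale understates changes at levels as low as those of Blk. On recovered reads the change was -1.11 by edgeR without the replicate number and 0.39 by DESeq2 with it. A change of some size in either direction was not detectable in Blk with these libraries. In limma the sign turned, at 1.07 without WT replicate 3, 0.50 without KO replicate 2 and 0.074 with a pseudocount of 0.1.

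Syk, the kinase that docks on the phosphorylated receptor chains, was at 302, 260.4 and 409 CPM in KO replicates 1, 2 and 3, against 260.1, 276 and 421 CPM in WT replicates 1, 2 and 3. As with Lyn, both libraries numbered 3 were the highest. Its log2 change was 0.028 ± 0.074, with an interval from 0.894-fold to 1.16-fold (limma with the replicate number, adjusted p = 0.855).

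Btk, the Tec family kinase that phosphorylates phospholipase C-γ2, was at 117, 141 and 133 CPM in KO replicates 1, 2 and 3, against 106, 132 and 131 CPM in WT replicates 1, 2 and 3. It was the only one of the 9 that was higher in KO in all 3 pairs, by 0.14, 0.092 and 0.019 (log2), a pattern that 16.7% of tested genes shared. No member (0 of 9) was lower in all 3 pairs, against 29.9% of tested genes. The groups overlapped and the log2 change of 0.083 ± 0.051 did not pass (limma with the replicate number, adjusted p = 0.398, interval 0.967-fold to 1.16-fold).

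Blnk, the scaffold on which Btk and phospholipase C-γ2 meet, was at 193, 226 and 280.3 CPM in KO replicates 1, 2 and 3, against 169.9, 217 and 285 CPM in WT replicates 1, 2 and 3. The order of the replicate numbers, lowest in 1 and highest in 3, was the same in both groups. Its log2 change was 0.074 ± 0.060 (limma with the replicate number, adjusted p = 0.506, interval 0.947-fold to 1.17-fold).

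Vav1, an exchange factor for Rac GTPases, had nearly the same level in every library. It was at 161, 177 and 164 CPM in KO replicates 1, 2 and 3, against 163, 171 and 174 CPM in WT replicates 1, 2 and 3, and the highest library was 1.10-fold above the lowest. The log2 change was -0.018 ± 0.052, and the interval ran from 0.901-fold to 1.08-fold (limma with the replicate number, adjusted p = 0.866). Under another scaling (equal totals or quantile normalization) the sign turned, at 0.037 and 0.00073.

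Plcg2, the phospholipase that makes the second messengers for calcium release and protein kinase C, was at 511, 487 and 453 CPM in KO replicates 1, 2 and 3, against 451, 506 and 528 CPM in WT replicates 1, 2 and 3. No replicate number was high in both groups. The log2 change was -0.032 ± 0.087 (limma with the replicate number, adjusted p = 0.857, interval 0.838-fold to 1.14-fold), and with equal totals it was 0.023.

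Bcl10 and Malt1 act together in the complex that leads to NF-κB, Malt1 being also a protease. Bcl10 was at 70.4, 38.7 and 43.9 CPM in KO replicates 1, 2 and 3, against 59.4, 34.8 and 46.6 CPM in WT replicates 1, 2 and 3, so that replicate 1 was the highest in both groups. Malt1 was at 66.9, 88.6 and 54.7 CPM in KO replicates 1, 2 and 3, against 57.1, 96.0 and 58.8 CPM in WT replicates 1, 2 and 3, with replicate 2 the highest in both. The log2 change of Bcl10 was 0.10 ± 0.081 (limma with the replicate number, adjusted p = 0.496, interval 0.932-fold to 1.24-fold). That of Malt1 was 0.0033 ± 0.085 (adjusted p = 0.987, interval 0.862-fold to 1.17-fold). The partners therefore peaked in different replicate numbers, and neither differed between KO and WT beyond the spread.

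**Figure D2:**
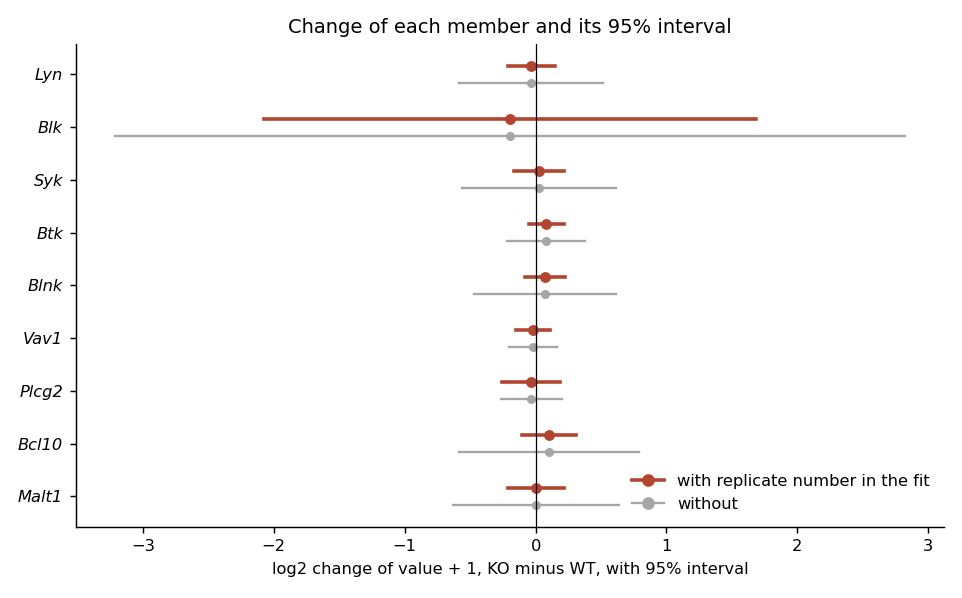
Log2 change of value plus 1, KO minus WT, with its 95% interval for each of the 9 genes (horizontal axis), from the limma fit with the replicate number (red) and without it (grey), 3 libraries a group. Every interval spans 0, and with the replicate number in the fit all but that of Blk lie between 0.838-fold and 1.24-fold on the linear scale.

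Over the 9 members the median log2 change was 0.0033, against -0.028 over all tested genes, with 5 members above 0 and 4 below. The median size of the change, sign left aside, was 0.033 in the members and 0.11 over all tested genes. In the fit with the replicate number, 8 of 9 members had a 95% interval that lay inside 1.5-fold either way, as did 80.6% of all tested genes. Those intervals take equal replicate numbers as pairs, which rests on the data and not on the labels. Without the replicate number the intervals were wider, from -0.58 to 0.52 (log2) for Lyn and from -0.59 to 0.79 for Bcl10.

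Within pairs, 8 of 9 members were higher in KO in pair 1, 6 of 9 in pair 2 and 1 of 9 in pair 3. Of all tested genes 40.3%, 49.7% and 39% were higher in KO in pairs 1, 2 and 3. Leaving Blk aside, no member moved by more than 0.24 (log2) in any pair. Replicates of a group have no order, so the 3 pairs are 3 observations of the same contrast, and for the members they did not point the same way.

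In 8 of 9 members most of the sum of squares on the log2 scale lay between replicate numbers, but not in Plcg2. A limma F test of that number, chosen after the values were seen, called 6 of 9 members, against 40.5% of tested genes. The 6 were Blnk (adjusted p = 0.00699), Bcl10 (0.00824), Syk (0.0103), Lyn (0.0113), Malt1 (0.0125) and Btk (0.0343), while Blk (0.0882), Vav1 (0.434) and Plcg2 (0.919) did not pass. Without WT replicate 3 the test called 1 member, Bcl10, and 11.1% of tested genes. It called 4 members without KO replicate 2, without KO replicate 3 or without WT replicate 2, 5 by edgeR and by quantile normalization, and 7 with a pseudocount of 0.1. The range between the means of the 3 numbers was 0.60 in Lyn, 0.63 in Syk, 0.64 in Blnk, 0.69 in Malt1 and 0.80 in Bcl10 (log2), against a median of 0.37 over tested genes. It was 0.098 in Vav1 and 0.048 in Plcg2, and 3.10 in Blk, a range that 1.21% of tested genes exceeded. As a share of the sum of squares on the log2 scale, the replicate number took a median of 93.6% in the members and 74.5% over tested genes, and the genotype 1.94% and 9.56%. In Plcg2 the replicate number took 5.21% and the genotype 3.54%. With 3 numbers against 2 groups, the share of the replicate number tends to be the larger even without an effect.

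**Figure D3:**
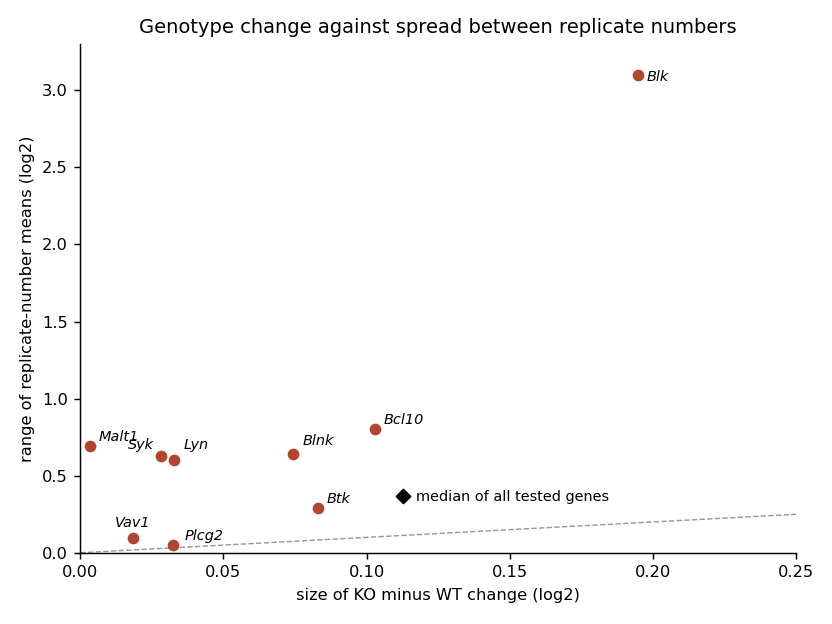
Size of the KO minus WT change (horizontal axis, log2, sign left aside) against the range between the means of replicate numbers 1, 2 and 3 (vertical axis, log2) for the 9 genes and, as a diamond, the medians over the 10533 tested genes; the dashed line marks equal values and the axes differ in scale. Every member lies above the line, from 0.048 in Plcg2 to 3.10 in Blk on the vertical axis. A range over 3 means tends to exceed a difference between group means even without a replicate effect, so this position alone shows none. Plcg2 lies above the line although its adjusted p in the limma F test of the replicate number was 0.919.

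Libraries of different number also differed in markers of early B cells. Dntt, the terminal transferase of pro-B cells, was at 0.133, 135.5 and 100.0 CPM in KO replicates 1, 2 and 3, against 1.07, 205 and 150.1 CPM in WT replicates 1, 2 and 3. It was low in both libraries numbered 1, and it fell in KO (log2 change -0.68, limma with the replicate number, adjusted p = 0.0455). That call was lost without pair 2 or pair 3 (limma adjusted p = 0.254 and 0.252) and was made by neither edgeR nor DESeq2 with the replicate number (0.199 and 0.337). The summed level of 8 pro-B and pre-B markers was 202, 1043 and 834 CPM in KO replicates 1, 2 and 3, against 317, 1003 and 909 CPM in WT replicates 1, 2 and 3. Number 1, with the lowest sum in both groups, also had the lowest mean for Btk, Blnk, Vav1 and Plcg2 and the highest for Bcl10. Lyn, Syk and Blk had their lowest mean in number 2 and Malt1 in number 3. With only 3 numbers such matches arise easily, and their share over all tested genes was not counted. The part of these markers in the spread of the members was not tested. In bulk RNA, fewer cells of a type and less RNA per cell cannot be told apart.

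The members did not share a single pattern over the 6 libraries. Lyn and Syk ran most closely together (Pearson r = 0.97 of log2 values, n = 6 libraries), followed by Syk and Blnk (0.85) and Lyn and Blk (0.84). Btk was most like Blnk (0.74) and Vav1 most like Btk (0.74). Malt1 ran against Lyn (-0.67), and Bcl10 against Btk (-0.80). Outside the list, the 3 tested genes closest to the members' mean standardised profile were Daxx (0.98), Dyrk1a (0.97) and Grb2 (0.97), the last an adaptor of the same pathway. These correlations describe 6 libraries in which replicate numbers dominate, and a search over all tested genes finds high values for any profile.

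Levels between genes were compared per kilobase of exon, using summed exon lengths of GENCODE M21, which count every annotated exon and so lower the values of genes with rarely used ones. On that scale Plcg2 was the highest member, at 112 in KO and 115 in WT. Vav1 (45.4 in KO, 45.9 in WT), Btk (41.4 and 39.1), Blnk (38.9 and 37.4), Syk (34.6 and 34.1) and Lyn (33.6 and 34.9) followed. Over the 6 libraries these 5 overlapped with their neighbours in the order, with Vav1 at 43.6 to 47.9 and Btk at 33.8 to 44.7. Bcl10 (11.2 in KO, 10.3 in WT) lay apart from both its neighbours, above Malt1 (3.89 and 3.92). Blk averaged 1.59 in KO and 3.64 in WT and overlapped with Malt1.

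Among Src family kinases, Lyn had the highest level per kilobase in each of the 6 libraries (28.4 to 46.5). Lck, known best from T cells, averaged 14.1 in KO and 16.2 in WT, and Fyn 7.87 in KO and 8.56 in WT. Lck was at 14.2, 39.0 and 71.0 CPM in KO replicates 1, 2 and 3, against 23.6, 41.2 and 78.0 CPM in WT replicates 1, 2 and 3, and its log2 change of -0.30 did not pass. Yes1 ran the other way, with 15.9, 6.65 and 1.02 CPM in KO replicates 1, 2 and 3, against 19.9, 8.77 and 0.920 CPM in WT replicates 1, 2 and 3. Within each family the member stood above its relatives in level per kilobase. Syk was at 27.8 to 45.0 and Zap70 at 0.158 to 1.10, Btk at 33.8 to 44.7 and Tec at 8.32 to 11.6, Plcg2 at 105 to 123 and Plcg1 at 2.18 to 14.4, and Vav1 at 43.6 to 47.9 and Vav2 at 10.7 to 17.0. The exception was Blk, which lay below Lck and Fyn in all libraries but WT replicate 3, where it passed Fyn.

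**Figure D4:**
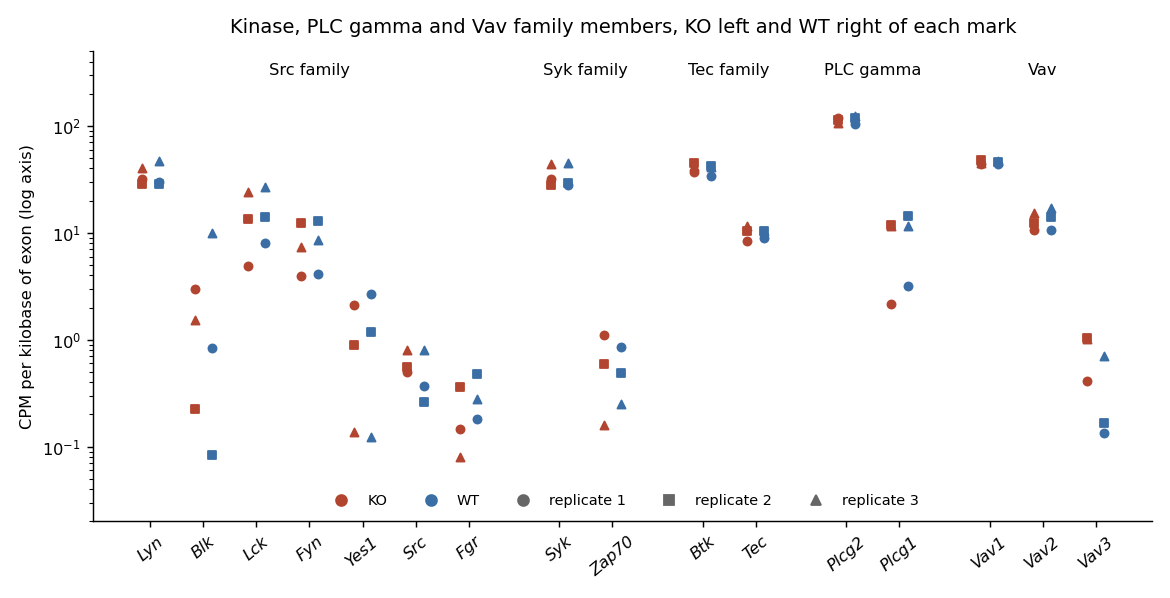
Level per kilobase of exon (vertical log axis, CPM per kilobase) of Src, Syk, Tec, PLC gamma and Vav family genes in each KO library (red, left of each mark) and WT library (blue, right), with symbols for replicate numbers. Lyn, Syk, Btk, Plcg2 and Vav1 lead their families in every library, while Blk and Yes1 spread over more than a factor of 10 between libraries.

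The rest of the pathway was followed in 6 lists with 96 genes, of which 85 were tested. Without the replicate number limma called 0 of the 85. With it, 0 rose, 2 fell and 83 did not pass, or 2.35% called against 0.873% of tested genes (0.133% higher and 0.741% lower). The median log2 change of the 85 was -0.0032, and edgeR with the replicate number called 0 of them.

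Receptor chains and coreceptor genes did not pass (0 of 4 tested, median log2 change -0.00075). Cd79b, which carries the tyrosines that Lyn and Syk act on, averaged 472 ± 40.1 CPM in KO and 458 ± 64.3 CPM in WT (SD, n = 3 each). Cd81, a membrane protein of the tetraspanin family, averaged 109 ± 17.2 CPM in KO and 126 ± 7.04 CPM in WT. Of 8 other Src, Syk and Tec kinases tested, 0 passed (median 0.044), with Src (log2 change 0.31) and Lck among those with the smallest p without the replicate number. Of 19 other adaptors and exchange factors, 0 passed (median 0.049). Hcls1, a substrate of Lyn and Syk, averaged 184 ± 49.5 CPM in KO and 181 ± 49.4 CPM in WT. Vav3 (log2 change 1.09), Lcp2 (0.91), the T cell and myeloid relative of Blnk, and Themis2 (0.21) had the smallest p of the list without the replicate number, and their adjusted p in the paired limma fit was 0.151, 0.223 and 0.188. In the paired fit the smallest p of the list was that of Pik3ap1, which links the receptor to PI3 kinase, lower in KO in all 3 pairs without passing (log2 change -0.35 ± 0.075, limma adjusted p = 0.119). Vav3 and Lcp2 were highest in KO replicate 2, the library with the highest level of the myeloid markers described below, whose part in these values was not tested.

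In the calcium branch Itpr2, which encodes an IP3 receptor that releases calcium from the endoplasmic reticulum, fell in KO libraries. It was at 59.5, 52.0 and 60.8 CPM in KO replicates 1, 2 and 3, against 94.9, 83.8 and 87.0 CPM in WT replicates 1, 2 and 3. The groups did not overlap, and the log2 change was -0.62 ± 0.060 (limma with the replicate number, adjusted p = 0.0352, without it 0.232). The other 15 of 16 genes did not pass (median of the list -0.089). Among them Ppp3cb, a calcineurin subunit, averaged 156 ± 7.33 CPM in KO and 166 ± 18.7 CPM in WT, and Nfatc3 (log2 change 0.17), the calcium channel Orai1 (-0.26) and Ppp3r1 (0.13) had the smallest p without the replicate number. With the replicate number, the smallest p after Itpr2 belonged to the genes of the other IP3 receptors. Itpr1 was at 59.2, 163 and 122 CPM in KO replicates 1, 2 and 3, against 94.1, 213 and 174 CPM in WT replicates 1, 2 and 3, lower in KO in all 3 pairs, and just missed the threshold (log2 change -0.52 ± 0.069, limma with the replicate number, adjusted p = 0.0506). Itpr3, also lower in KO in all 3 pairs, had a log2 change of -0.27 ± 0.071 (adjusted p = 0.148). The call of Itpr2 was lost without pair 2 or pair 3 (limma adjusted p = 0.208 and 0.159). It was also missed by edgeR with the replicate number (0.0516) and made by DESeq2, with and without it.

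Among brakes on proximal signalling, Pag1 fell in KO libraries. It encodes a membrane adaptor that brings Csk, the kinase that inactivates Src family kinases, to the membrane. Pag1 was at 24.3, 73.1 and 44.3 CPM in KO replicates 1, 2 and 3, against 37.9, 127 and 96.4 CPM in WT replicates 1, 2 and 3. The groups overlapped, since the replicate numbers differed widely, but KO was lower in all 3 pairs, with a log2 change of -0.84 ± 0.10 (limma with the replicate number, adjusted p = 0.0455, without it 0.9998). The other 20 of 21 brakes did not pass (median of the list 0.012). Csk itself averaged 242 ± 19.7 CPM in KO and 279 ± 8.53 CPM in WT (log2 change -0.21, paired adjusted p = 0.197 by limma), and the lipid phosphatase gene Inpp5d 293 ± 17.9 CPM in KO and 292 ± 35.5 CPM in WT. Dgka, which removes diacylglycerol, averaged 48.1 ± 2.01 CPM in KO and 36.6 ± 4.24 CPM in WT without passing (log2 change 0.39, paired adjusted p = 0.137 by limma), and Sla was at -0.48 (0.0920). Without pair 2 or pair 3 the call of Pag1 was lost (limma adjusted p = 0.248 and 0.171), and edgeR with the replicate number did not make it (0.0669), while DESeq2 with the replicate number did.

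Of 17 tested genes of the branch that leads through Bcl10, Malt1 and IKK to NF-κB, 0 passed (median log2 change -0.073). Card9, an adaptor that serves Bcl10 and Malt1 in myeloid cells, averaged 26.0 ± 4.03 CPM in KO and 36.9 ± 8.78 CPM in WT (log2 change -0.47, paired adjusted p = 0.134). Tab1 (-0.21) did not pass either, and Rbck1, part of the linear ubiquitin ligase, averaged 167 ± 6.87 CPM in KO and 173 ± 15.3 CPM in WT.

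**Figure D5:**
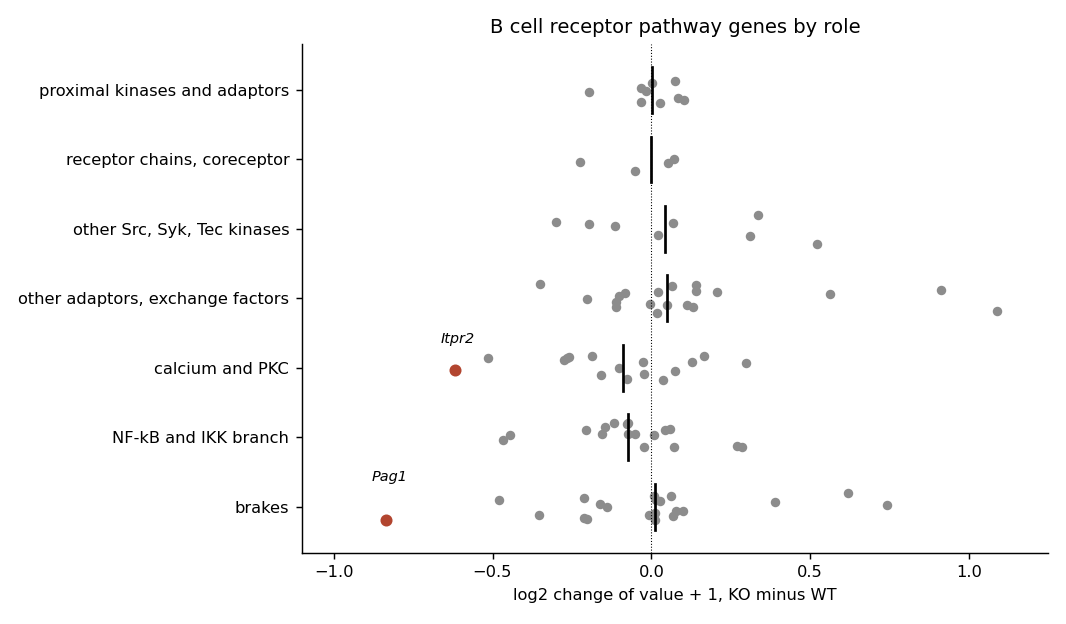
Log2 change of value plus 1, KO minus WT (horizontal axis), of the 9 proximal genes and the 85 other tested pathway genes, 1 row per role with a point per gene and a black line for the row's median. Only Itpr2 and Pag1 (red) passed limma with the replicate number in the fit.

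Cells other than B cells can carry several members, since macrophages also use Syk, Lyn, Btk, Vav1 and Plcg2. Of 20 myeloid markers, 16 were tested, and their summed level with the other 4 was 39.6, 2245 and 1208 CPM in KO replicates 1, 2 and 3, against 62.5, 224 and 170.3 CPM in WT replicates 1, 2 and 3. All 16 were higher in KO in pairs 2 and 3 and 3 of 16 were in pair 1, while the neutrophil markers S100a8 and S100a9 stayed below 1 CPM. Of all tested genes 40.3%, 49.7% and 39% were higher in KO in pairs 1, 2 and 3. Limma called 0 of the 16 without and with the replicate number, against 0.00949% and 0.873% of tested genes. Lyz2, the leading marker, was at 10.7, 1471 and 820.3 CPM in KO replicates 1, 2 and 3, and Mpeg1 at 4.09, 165 and 79.5 CPM. In pair 1, where KO did not exceed WT in the sum, the log2 changes of Syk, Lyn, Btk, Vav1 and Plcg2 were 0.21, 0.089, 0.14, -0.022 and 0.18. In pair 2, where the excess was largest, they were -0.085, 0.013, 0.092, 0.050 and -0.056, and in pair 3 they were -0.043, -0.20, 0.019, -0.083 and -0.22. Itpr2 and Pag1 were lower in KO in all 3 pairs, by log2 changes of -0.66 and -0.62 in pair 1. The part of myeloid transcripts in any of these values, those of Itpr2 and Pag1 included, was not tested.

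T and NK cell markers stood at 9.33 CPM or less apart from Cd2, which mouse B cells also express. Of 14 such markers 4 were tested, and the summed level of the 14 was 72.2, 22.1 and 41.9 CPM in KO replicates 1, 2 and 3, against 30.1, 7.02 and 47.5 CPM in WT replicates 1, 2 and 3. Lat, an adaptor best known from T cells, was at 1.23 to 7.26 CPM in KO and 1.28 to 9.33 CPM in WT. Cd2 made up 61.9, 1.41 and 31.7 CPM of that in KO and 23.3, 0.401 and 36.6 CPM in WT. Like Blk, Cd2 was lowest in both libraries numbered 2. Cd3e and Trat1, which mark T cells, were at 0.527 CPM or less in every library. Of 6 plasma cell markers 4 were tested, and of 13 erythroid, platelet and stroma markers 2. Limma called 0 of them without and with the replicate number, against 0.00949% and 0.873% of tested genes. With so few tested, that count says little. Xbp1 was at 131.8 to 253 CPM in KO and 145 to 200.5 CPM in WT. Pecam1 was at 54.2 to 101 CPM in KO and 50.2 to 62.1 CPM in WT. Irf4 was at 97.4 to 282 CPM in KO and 139 to 196 CPM in WT. Pf4 was at 0.366 to 48.7 CPM in KO and 2.52 to 6.07 CPM in WT.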

How the data were processed

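RNA-seq libraries of 3 KO and 3 WT samples were analysed from a single deposited table. The deposited unit is a signal, made by the authors by scaling each gene's reads to an effective library size, although the table calls it FPKM. All values of a library were whole multiples of its smallest positive value (tolerance 0.01 reads, 100% of values), which returned whole reads and showed no division by length. Of tools, STAR 2.4.2a, HTSeq, CASAVA and edgeR are named in the submitters' processing notes, as is build mm9, with no role or order. Libraries were directional per the labels' protocols. Neither annotation nor strand setting was stated in the sources at hand, so overlapping and antisense genes cannot be told apart.

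Genes with a mean of at least 1 (10533 of 21448) were tested with limma 3.58.1 on log2(value + 1), two-sided, trended prior variance, Benjamini-Hochberg adjustment over all tested genes, threshold 0.05; this scale understates changes of low genes. The design text calls the libraries biological replicates, and p-values cover only the spread among them. The main fit left the replicate number out, and a fit with it as a block was an alternative. Deviations from group means correlated at 0.73, 0.73 and 0.84 between libraries of equal number, so numbers were taken as pairs from the data; the labels do not say so. Intervals and SE in the text are from the paired fit unless stated. Library pairs differed beyond counting noise (chi-square per degree of freedom at least 55.0), so all 6 counted. edgeR 4.0.16 and DESeq2 1.42.0 ran on recovered reads, in R 4.3.3. Fits were tested on simulated data. Exact permutation tests of single members (two-sided, smallest possible p 0.1) gave 0.5 to 1. Plots used matplotlib 3.10.9.

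The members and all gene lists were chosen with earlier results of these data known. Named were all members, Prdm15, every pathway gene called in either limma fit, the 3 with the smallest unpaired p and the highest mean of each pathway list, and the 2 highest of each marker list; Dntt, Fyn, Yes1, Itpr1, Itpr3, Pik3ap1, Ms4a1, other relatives of members and other single markers were named after their values were seen. Of list entries, 2 (Ighm and Igkc) had no row and were not analysed here. Some genes that the naming rule or the lists hold are not reported here.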

Additional observations from a re-analysis of the deposited data

How the results depend on the processing

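No alternative called a member. The median log2 change of the members, 0.0033 in the main fit, moved by less than its SD over the 3 pairs under each of the 19 alternatives. That SD was 0.135, far larger than the median itself, so this is a loose limit. The median ran from -0.10 without WT replicate 1 to 0.13 without WT replicate 3, and its sign was not stable. The call count over all tested genes, 1 in the main fit and 1 with equal totals, did depend on the fit. It was 92 with the replicate block (14 higher, 78 lower), 39 by edgeR with the block, 738 by DESeq2 with the block and 110 by DESeq2 without it. It was 0 with a pseudocount of 0.1, without a filter, by edgeR without the block and with quantile normalization. In these fits 434, 791, 582 and 431 genes had an unadjusted p under 0.05. The 791 came from 20529 genes tested without a filter, the others from 10533. Leaving out single libraries gave 0 in each case, with 234 to 722 genes at an unadjusted p under 0.05, and leaving out a pair under the block gave 0 to 840 calls.

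Signs of uncalled changes near 0 turned often, and no cause was tested. With equal totals Lyn was at 0.022, Vav1 at 0.037 and Plcg2 at 0.023. Vav1 was at 0.00073 under quantile normalization, 0.0069 and 0.0063 by edgeR without and with the block, and 0.0061 and 0.0058 by DESeq2 without and with it. Blk was at 0.074 with a pseudocount of 0.1 and at 0.083 and 0.39 by edgeR and DESeq2 with the block. Without both KO replicates 2 and 3, a fit of 1 KO library that is assumed to vary like WT, Bcl10 was at 0.61, Lyn at -0.10, Vav1 at -0.073, Blk at 0.92, Syk at -0.047, Btk at -0.066, Blnk at -0.18, Plcg2 at 0.049 and Malt1 at -0.035. Without single libraries the changes ranged from -0.17 to 0.19 in Lyn, -1.18 to 1.07 in Blk, -0.15 to 0.24 in Syk, -0.018 to 0.16 in Btk, -0.11 to 0.26 in Blnk, -0.058 to 0.0091 in Vav1, -0.098 to 0.016 in Plcg2, -0.15 to 0.29 in Bcl10 and -0.18 to 0.24 in Malt1. Without single pairs, under the block, they ranged from -0.094 to 0.051 in Lyn, -1.03 to 0.93 in Blk, -0.064 to 0.085 in Syk, -0.053 to 0.014 in Vav1, -0.14 to 0.062 in Plcg2 and -0.11 to 0.062 in Malt1, and kept their sign in Btk, Blnk and Bcl10. Of the pathway genes outside the members, DESeq2 with the block called 2 adaptors, 2 calcium branch genes, 2 of the IKK branch and 3 brakes, where it called 7.01% of all tested genes. The block without pair 1, which called 840 of 10533 genes, called 1 adaptor, 3 calcium branch genes, 1 of the IKK branch, 5 brakes and 16 of 16 tested myeloid markers. The count of members that differed between replicate numbers was 1 without WT replicate 3 and 4 to 6 without any other single library. Blk had 9 reads in its lowest library, and what limits its precision was not tested.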
